A study of Homo sapiens with 12 samples.

Results

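The genes described here are 9 genes of the epithelial to mesenchymal transition, chosen by symbol among the 58174 genes of the deposited table: VIM, FN1, SNAI1, SNAI2, ZEB1, ZEB2, TWIST1, THY1 and SPARC. Their RNA was measured in H520 cells, a human cancer cell line established from a squamous carcinoma of the lung, in 12 mRNA sequencing libraries. The 4 groups of 3 libraries were cells given BLU9931 together with palbociclib (the combination), palbociclib alone, BLU9931 alone, and control cells. Each drug was used at 1 µM for 72 h. BLU9931 is an inhibitor of FGFR4, a receptor for fibroblast growth factors, and palbociclib blocks CDK4 and CDK6, the kinases that release cells from G1 phase. All groups are the same cell line, and the labels do not state what the control cells received. Nor do they say whether the libraries of a group are separate cultures, and the spread behind the p-values may therefore be only technical. The comparisons ask what each drug and their combination do to these cells, and here only the RNA of the 9 genes and of their functional counterparts is described.

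In an epithelial to mesenchymal transition, cells with tight contacts and E-cadherin on their surface take on the shape and the motility of mesenchymal cells. Transcription factors of the SNAIL, ZEB and TWIST families bind E-box sequences in the promoters of E-cadherin and other junction genes and repress them. Vimentin filaments, a fibronectin matrix and other mesenchymal products accumulate as the junctions are lost. In carcinomas the change is often partial, and single genes of the programme can move without the others. The microRNAs of the miR-200 family and miR-205 bind the messages of ZEB1 and ZEB2 and lower them, while the ZEB proteins repress the genes of those microRNAs.

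The mature microRNAs are shown first because the RNAs that host some of them changed in these cells and because ZEB1 and ZEB2 each carry several matches to the seeds of the miR-200 family. Capitals mark the seed, bases 2 to 8, which pairs with a target. The sequences come from RefSeq (GRCh38.p14). The first 3 share the seed AAUACUG and the next 2 the seed AACACUG.
hsa-miR-200c-3p: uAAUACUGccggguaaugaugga
hsa-miR-200b-3p: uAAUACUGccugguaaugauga
hsa-miR-429: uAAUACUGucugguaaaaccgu
hsa-miR-200a-3p: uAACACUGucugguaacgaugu
hsa-miR-141-3p: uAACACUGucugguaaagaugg
hsa-miR-205-5p: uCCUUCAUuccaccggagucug

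In the longest protein-coding transcript of GENCODE 29, the region after the ZEB1 stop codon held 6 copies of CAGTATT, the DNA match to the seed of miR-200b, miR-200c and miR-429, and 3 copies of CAGTGTT, the match to that of miR-200a and miR-141. The same region of ZEB2 held 5 and 4 copies. Among 19075 genes, 0.849% had at least 3 copies of CAGTATT there and 1.05% at least 3 of CAGTGTT. FN1 held 2 copies of CAGTATT and SNAI2 held 1, against 16.0% of genes with at least 1. ATGAAGG, the match to the miR-205 seed, occurred once in ZEB1 and once in SPARC, against 11.4% of genes with at least 1. None of the 3 matches was found after the stop codons of VIM, SNAI1, TWIST1 and THY1. The matches are counts of letters on the transcript strand and not measured binding sites. The first CAGTATT of each ZEB message, with the match in capitals, stands 369 bases after the stop codon in ZEB1 and 392 bases after it in ZEB2.
ZEB1: ttgttttatcttatCAGTATTa
ZEB2: gcactaccatacatCAGTATTt

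The bases ahead of VIM and FN1 are shown because these were the members that rose together. RefSeq windows of 250 bases before the start of transcription were available for 5 of the 9 members. Capitals mark the GC box, GGGCGG or CCGCCC (either strand, overlapping copies counted), and the cyclic AMP response element TGACGTCA. The VIM window, chr10:17227991-17228240 on the plus strand, held 1 GC box. The FN1 window, chr2:215436069-215436318 on the minus strand, held 6 GC boxes and 1 TGACGTCA; the 146 bases printed, chr2:215436173-215436318, are those ahead of the GENCODE gene bounds and hold 3 of these GC boxes and the TGACGTCA. A GC box occurred in 42.6% and TGACGTCA in 1.65% of 35116 such windows. Both windows held 0 copies of the E-box CANNTG, of the AP-1 element (TGACTCA or TGAGTCA) and of the TATA box TATAAA. These occurred in 61.8%, 4.2% and 6.8% of such windows. A match of letters does not show that a factor binds there.
VIM: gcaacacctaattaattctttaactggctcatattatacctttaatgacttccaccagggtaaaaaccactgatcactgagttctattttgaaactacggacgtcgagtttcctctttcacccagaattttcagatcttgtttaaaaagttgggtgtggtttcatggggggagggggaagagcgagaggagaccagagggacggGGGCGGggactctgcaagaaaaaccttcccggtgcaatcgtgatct
FN1: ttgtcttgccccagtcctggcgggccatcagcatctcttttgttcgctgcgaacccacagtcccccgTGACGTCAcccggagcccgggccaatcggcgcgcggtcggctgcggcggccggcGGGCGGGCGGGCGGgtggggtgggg

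Library totals lay between 21730722 and 35786607 counts. Levels are in CPM, which are counts after scaling for library size, and changes are log2 fold changes of edgeR's quasi-likelihood fit with their standard error (SE). A gene is called where its p, adjusted over the 20612 genes tested, is under 0.05. Control 1 and palbociclib 3 stood apart from their group mates: their deviation from the group mean fell with the GC content of a gene (Spearman's rho over genes, -0.661 and -0.73). Among 14 markers of squamous cells, SOX2 was abundant (501 to 577 CPM by group), while TP63, KRT14, KRT17, DSG3, PKP1 and BNC1 did not pass the filter on low counts. KRT17 was at 0 in every library. In the combination against control 3 of the 8 tested markers rose and 1 fell, where 15.4% of all genes rose and 16.3% fell. These were KRT15 (1.70 ± 0.19, adjusted p = 5.23e-05), KRT6A (1.49 ± 0.44, 0.0227), TRIM29 (0.74 ± 0.23, 0.0314) and DSC3 (-0.64 ± 0.17, 0.0149). KRT5, SOX2, PERP and FAT2 were not called there. The sum of the 14 was 792 to 825 CPM in the combination and 710 to 792 CPM in control.

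The 9 members were measured at very different levels. On the TPM scale, which accounts for transcript length, VIM ranked 149th in the combination, 284th under palbociclib, 350th under BLU9931 and 508th in control among 19762 protein-coding genes. FN1 ranked 184th in the combination, 241st under palbociclib, 327th under BLU9931 and 392nd in control. ZEB1 and TWIST1 followed at mean levels of 5.62 to 7.90 TPM and 5.40 to 8.27 TPM. SNAI1, SNAI2, ZEB2, THY1 and SPARC lay between 0.0672 and 2.10 TPM in group means, and their order differed between groups. The filter on low counts was passed in all 4 groups by 7 members, in 3 groups by THY1, and by SPARC in all libraries of the palbociclib group alone.

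**Figure D1:**
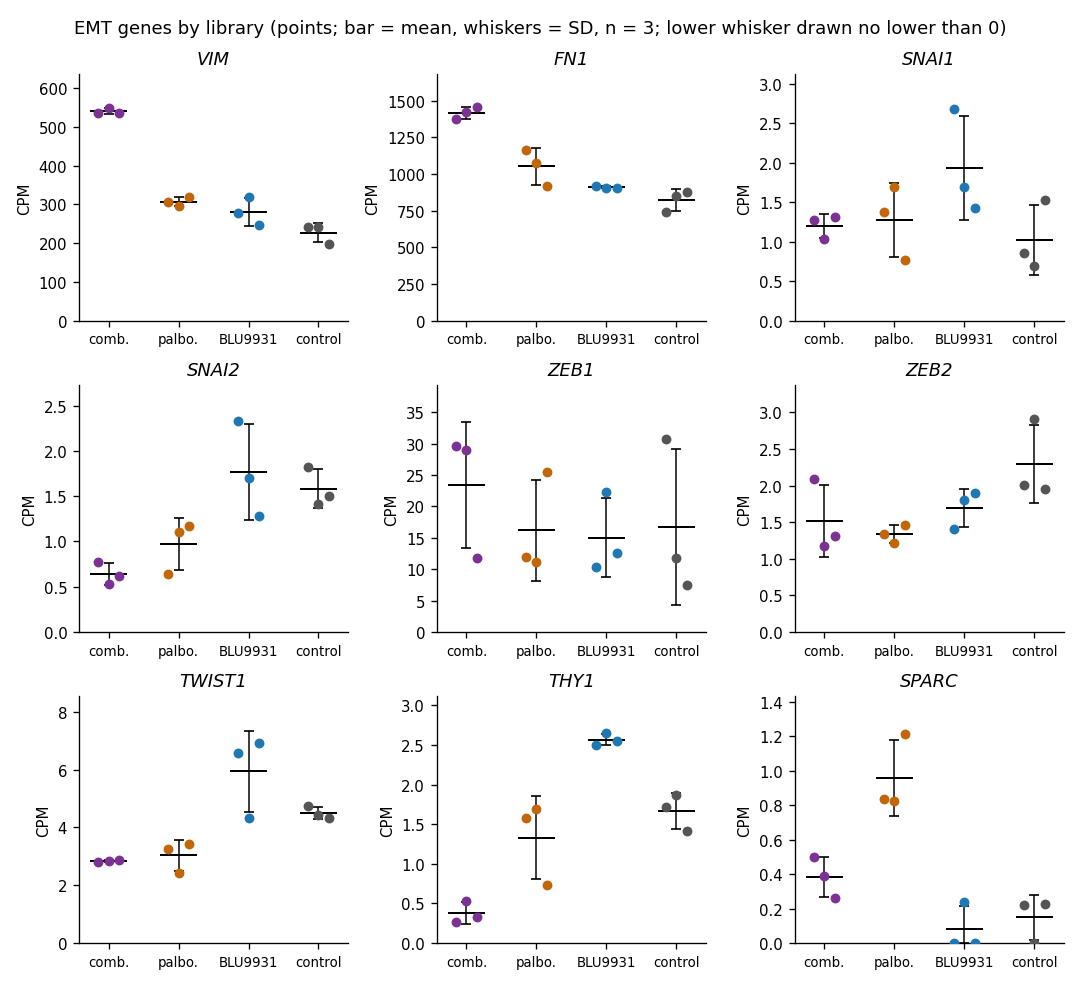
Level of each of the 9 genes in each library, in CPM on a linear axis from 0, for the combination, palbociclib, BLU9931 and control; points are libraries, the bar is the mean and the whiskers the SD (n = 3). VIM and FN1 are highest in the 3 combination libraries, THY1 is lowest there, SPARC is highest under palbociclib, and the ZEB1 values spread widely within every group.

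In cells given both drugs, VIM and FN1 rose against control and THY1, SNAI2 and TWIST1 fell, so that 5 of the 9 members were called, 2 up and 3 down. Over all genes tested, 31.7% were called in this comparison, 15.4% up and 16.3% down. The median log2 change of the 9 members was 0.21, against 0.03 for all genes. The abundant structural members rose, and the members that fell were measured at low levels. SNAI1, ZEB1, ZEB2 and SPARC were not called.

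VIM (ENSG00000026025, GRCh38 chromosome 10, 17228259 to 17237593, plus strand) encodes vimentin, the intermediate filament protein of mesenchymal cells. It was measured at 536, 549 and 535 CPM in the combination libraries, 306, 297 and 319 CPM under palbociclib, 277, 318 and 247 CPM under BLU9931, and 241, 243 and 198 CPM in control. The combination libraries lay above all others, and those of each single drug lay above all control libraries. Against control VIM rose by 1.25 ± 0.11 (log2, SE), or 2.38-fold, in the combination (adjusted p = 7.41e-06) and by 0.44 ± 0.11 under palbociclib (adjusted p = 0.0146). Its log2 difference under BLU9931 was 0.31 ± 0.11 (adjusted p = 0.231). In the combination it was higher than under palbociclib by 0.81 ± 0.11 (adjusted p = 0.00126) and than under BLU9931 by 0.94 ± 0.11 (adjusted p = 6.95e-05). The 3 combination results for VIM were called with each of the 12 libraries left out in turn, whereas the rise under palbociclib was not called without control 3 (0.34, adjusted p = 0.0573) or in a fit of only the palbociclib and control libraries (adjusted p = 0.0727). The antisense genes VIM-AS1 and AL133415.1 overlap VIM and were measured at 1.63 to 4.32 and 0.335 to 1.24 CPM, far below it.

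Some markers of other cell types also moved with the groups. The summed level of 10 leukocyte markers was highest in the combination and next under palbociclib, with BLU9931 and control overlapping, at 3.95 to 4.44 CPM in the combination, 2.79 to 3.38 under palbociclib, 1.49 to 2.50 under BLU9931 and 1.38 to 2.27 in control. Of these markers 3 passed the filter, and TYROBP was at 0 in every library. LYZ, which encodes lysozyme, was the 1 that rose (3.29 ± 0.31 in the combination against control, log2, SE, adjusted p = 1.43e-05). The other tested markers, CD68 (0.72, adjusted p = 0.155) and CD14 (-0.95, adjusted p = 0.123), had opposite signs there and were not called. The sum of 7 markers of glandular lung cells was 11.8 to 15.5 CPM in the combination, 17.5 to 22.03 under palbociclib, 12.4 to 13.8 under BLU9931 and 4.32 to 12.1 in control, with 2 markers past the filter and SCGB1A1 at 0. SLC34A2, a phosphate transporter, rose among them by 1.79 ± 0.32 in the combination (adjusted p = 0.00130) and by 2.78 ± 0.32 under palbociclib (adjusted p = 0.000170). NKX2-1, the other tested glandular marker, was not called in the combination (0.11, adjusted p = 0.838) or under palbociclib (0.42, adjusted p = 0.433). The sums of 9 endothelial markers overlapped between all groups (3.09 to 6.02 CPM). VWF among them rose by 2.38 ± 0.49 in the combination (adjusted p = 0.00321). The other tested endothelial markers went the other way there and were not called: CLDN5 -1.09 (adjusted p = 0.0676), TIE1 -0.35 (0.741) and ESAM -0.13 (0.719). The part of these markers in the VIM and FN1 results was not tested.

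FN1 (ENSG00000115414, chromosome 2, 215360440 to 215436172, minus strand) encodes fibronectin, a glycoprotein of the extracellular matrix to which integrins bind. It was measured at 1372, 1420 and 1459 CPM in the combination libraries, 1162, 1078 and 918 CPM under palbociclib, 917, 904 and 908 CPM under BLU9931, and 741, 850 and 878 CPM in control. The order of the groups was that of VIM, and the combination libraries again lay above all others, but palbociclib 3 was close to the BLU9931 libraries. FN1 rose against control by 0.78 ± 0.09 (log2, SE), or 1.72-fold, in the combination (adjusted p = 8.39e-05) and by 0.36 ± 0.09 under palbociclib (adjusted p = 0.0201). The difference under BLU9931 was 0.14 ± 0.09 (adjusted p = 0.441). The combination was higher than BLU9931 by 0.64 ± 0.09 (adjusted p = 0.000444), and this call and that against control were made with each library left out. The combination was higher than palbociclib by 0.43 ± 0.09 (adjusted p = 0.0257), a call made in 4 of 12 fits with a library left out. That call was lost without control 2, palbociclib 2, or any 1 of the BLU9931 or combination libraries (adjusted p = 0.052 to 0.12). The rise under palbociclib was lost without control 1 or 2 or palbociclib 1 or 2 (adjusted p = 0.0574 to 0.119), with no filter on low counts (0.0659), after removal of each library's trend on GC content (0.114) and in a fit of only the compared groups (0.129).

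THY1 (ENSG00000154096, chromosome 11, 119417378 to 119424985, minus strand) encodes the surface glycoprotein CD90, found on fibroblasts, neurons and mesenchymal stem cells. Its counts were 6, 15 and 10 in the combination libraries (0.272, 0.533 and 0.327 CPM) and 47, 43 and 18 under palbociclib (1.58, 1.69 and 0.727 CPM). They were 59, 78 and 66 under BLU9931 (2.50, 2.65 and 2.55 CPM) and 46, 54 and 50 in control (1.71, 1.87 and 1.42 CPM). The combination libraries were the lowest and the BLU9931 libraries the highest, with no overlap with any other group, while palbociclib and control overlapped. THY1 fell in the combination by 2.11 ± 0.34 (log2, SE) against control (adjusted p = 0.000711), by 1.80 ± 0.35 against palbociclib (adjusted p = 0.0134) and by 2.74 ± 0.34 against BLU9931 (adjusted p = 0.000131). The single drugs gave -0.31 ± 0.30 (palbociclib, adjusted p = 0.518) and 0.63 ± 0.29 (BLU9931, adjusted p = 0.320). The fall against palbociclib was not called without palbociclib 1 or 2 or combination 1 or 3 (adjusted p = 0.0534 to 0.0709), nor in a fit of only the compared groups (0.119), nor on the TPM values (adjusted p = 0.145 with a pseudocount of 0.1).

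The summed level of 10 fibroblast markers was highest under BLU9931, as THY1 was, but it overlapped between the combination and control. It was 5.62 to 6.81 CPM in the combination, 6.87 to 8.95 under palbociclib, 11.9 to 14.1 under BLU9931 and 6.33 to 9.32 in control. Only 4 of these 10 markers passed the filter, and DPT was at 0 in every library. In the combination against control none of the 4 was called. Their log2 differences were -0.57 for COL1A1 (adjusted p = 0.121), -0.52 for COL1A2 (0.599), -0.21 for PDGFRA (0.713) and 2.25 for POSTN (0.153). Against BLU9931, COL1A1 fell by 1.35 ± 0.26 (adjusted p = 0.00262), and the other 3 were not called. In bulk RNA, fewer cells that express THY1 and less THY1 RNA per cell cannot be told apart, and the part of fibroblast-like expression in the THY1 result was not tested. USP2-AS1, which runs antisense across the whole of THY1, was measured at up to 0.447 CPM and at 0 to 0.181 CPM in the combination libraries. The use of strand in counting is not given in the sources used here.

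SPARC (ENSG00000113140, chromosome 5, 151661096 to 151687165, minus strand) encodes osteonectin, a secreted protein that binds collagen and calcium. It had 127 counts in all 12 libraries: 11, 11 and 8 in the combination, 25, 21 and 30 under palbociclib, 0, 7 and 0 under BLU9931, and 6, 0 and 8 in control. The palbociclib libraries were above every other library in counts, CPM and TPM. In CPM the combination libraries lay above all BLU9931 and control libraries, narrowly for combination 3 (0.262 CPM) over BLU9931 2 (0.238 CPM). That order did not hold in counts, where combination 3 and control 3 both had 8. Nor did it hold in TPM, where BLU9931 2 (0.264 TPM) lay above all combination libraries. SPARC passed the filter on low counts with 5 libraries, the 3 palbociclib libraries and combination 1 and 2. Its level under palbociclib therefore bore on whether it was tested. The log2 difference from control was 2.62 ± 0.81 (SE) under palbociclib (adjusted p = 0.0414), and 2.62 (adjusted p = 0.0477) in a fit of all genes with no filter. This p was not under 0.05 with any 1 of the control, palbociclib or combination libraries left out (adjusted p = 0.0592 to 0.0975).

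The log2 difference of SPARC in the combination was 1.29 ± 0.87 against control (adjusted p = 0.291) and -1.33 ± 0.74 against palbociclib (adjusted p = 0.444). On TPM values the comparison with palbociclib was past the threshold, at -0.83 on log2(TPM + 1) (limma, adjusted p = 0.00301) and at -2.10 on log2(TPM + 0.1) (adjusted p = 0.0499). The TPM fits used the genes kept by the same filter. The level of SPARC under palbociclib thus bore on its being tested here too, and these p-values are not read as support. Against BLU9931 the difference was 2.07 ± 0.97 (adjusted p = 0.142). BLU9931 2 was the single BLU9931 library with SPARC counts, and without it that group stood at 0 throughout. The log2 difference was then 6.38 (adjusted p = 0.0228), a result of leaving out the only counts of that group. Under BLU9931 the difference from control was -0.78 ± 1.07 (adjusted p = 0.719).

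Among the transcription factors, SNAI2 (ENSG00000019549, chromosome 8), which encodes SLUG, a repressor that binds E-boxes, fell in the combination. It was measured at 0.770, 0.533 and 0.622 CPM in the combination libraries, 0.637, 1.10 and 1.17 CPM under palbociclib, 2.33, 1.70 and 1.28 CPM under BLU9931, and 1.82, 1.42 and 1.50 CPM in control. The combination and the palbociclib libraries lay below all control libraries, and they overlapped each other. SNAI2 fell by 1.30 ± 0.31 (log2, SE) against control (adjusted p = 0.00719) and by 1.46 ± 0.31 against BLU9931 (adjusted p = 0.00441), with both calls made whichever library was left out. Its difference was -0.71 ± 0.29 under palbociclib against control (adjusted p = 0.115) and -0.59 ± 0.32 in the combination against palbociclib (adjusted p = 0.417).

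TWIST1 (ENSG00000122691, chromosome 7, 19020991 to 19117672, minus strand), a basic helix-loop-helix factor of mesoderm and neural crest, was at 2.81, 2.84 and 2.88 CPM in the combination libraries and 3.25, 2.44 and 3.44 CPM under palbociclib. It was at 6.58, 4.34 and 6.92 CPM under BLU9931 and 4.73, 4.43 and 4.33 CPM in control. In CPM every library with palbociclib, alone or combined, lay below every library without it. On the TPM scale they overlapped, with palbociclib 1 at 6.35 TPM and control 1 at 5.34 TPM. TWIST1 fell in the combination by 0.66 ± 0.20 against control (adjusted p = 0.0248) and by 1.06 ± 0.20 against BLU9931 (adjusted p = 0.00215). Under palbociclib alone the difference from control was -0.56 ± 0.20 (adjusted p = 0.0655) and under BLU9931 it was 0.40 ± 0.19 (adjusted p = 0.329). The fall against control was not called without control 1 or any 1 of the combination libraries (adjusted p = 0.053 to 0.063). On log2(TPM + 1) it was -0.21 (adjusted p = 0.407), with mean levels of 5.40 ± 0.42 TPM in the combination and 6.48 ± 1.64 TPM in control (SD, n = 3). The fall against BLU9931 was called with each library left out.

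SNAI1 (ENSG00000124216, chromosome 20, 49982999 to 49988886, plus strand), the SNAIL repressor of E-cadherin, was not called in any comparison. It had 1.27, 1.03 and 1.31 CPM in the combination, 1.37, 1.69 and 0.768 CPM under palbociclib, 2.67, 1.70 and 1.43 CPM under BLU9931, and 0.857, 0.692 and 1.53 CPM in control. Its groups overlapped except the combination and BLU9931, where the log2 difference was -0.68 ± 0.37 (SE, adjusted p = 0.198). The largest log2 difference from control was 0.89 ± 0.37 under BLU9931 (adjusted p = 0.280).

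ZEB2 (ENSG00000169554, chromosome 2, 144364364 to 144524583, minus strand), a zinc finger and homeobox repressor, had 2.08, 1.17 and 1.31 CPM in the combination, 1.34, 1.22 and 1.45 CPM under palbociclib, 1.40, 1.80 and 1.89 CPM under BLU9931, and 2.01, 2.91 and 1.95 CPM in control. The libraries of each single drug lay below all control libraries, and combination 1 overlapped them. The log2 difference from control was -0.60 ± 0.26 in the combination (adjusted p = 0.0995), -0.77 ± 0.26 under palbociclib (adjusted p = 0.0556) and -0.43 ± 0.25 under BLU9931 (adjusted p = 0.409). Without combination 1 the first of these was -0.89 (adjusted p = 0.0284) and the second -0.78 (adjusted p = 0.0352), both past the threshold.

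ZEB1 (ENSG00000148516, chromosome 10, 31318495 to 31529814, plus strand), the paralogue of ZEB2, had 29.6, 28.9 and 11.8 CPM in the combination, 11.9, 11.2 and 25.5 CPM under palbociclib, 10.4, 22.2 and 12.6 CPM under BLU9931, and 30.8, 11.8 and 7.56 CPM in control. The groups overlapped throughout, and in each of them the libraries fell far apart, with combination 1 and 2, palbociclib 3, BLU9931 2 and control 1 high. No comparison called ZEB1, and its log2 difference from control was 0.49 ± 0.54 in the combination, -0.05 ± 0.54 under palbociclib and -0.15 ± 0.54 under BLU9931 (SE). Its pooled SD of log2 CPM within groups was 0.753, larger than that of all but 1.91% of 11972 genes, whose median was 0.214, while VIM had 0.127 and FN1 0.111.

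The high ZEB1 libraries included control 1 and palbociclib 3, the libraries that stood apart by GC content, and the longest ZEB1 transcript has a GC content of 38.5%. Combination 1 and 2, the other high libraries of ZEB1, had a rho of -0.239 and -0.243, and BLU9931 2 had 0.041. With each library's trend on GC content removed, the SE of ZEB1 fell to 0.45, and its log2 difference in the combination against control was 0.73. What part the GC trend has in the ZEB1 values was not tested. The antisense gene ZEB1-AS1, which overlaps ZEB1 over 1953 bases, was at 5.44 to 12.7 CPM in the 12 libraries.

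**Figure D2:**
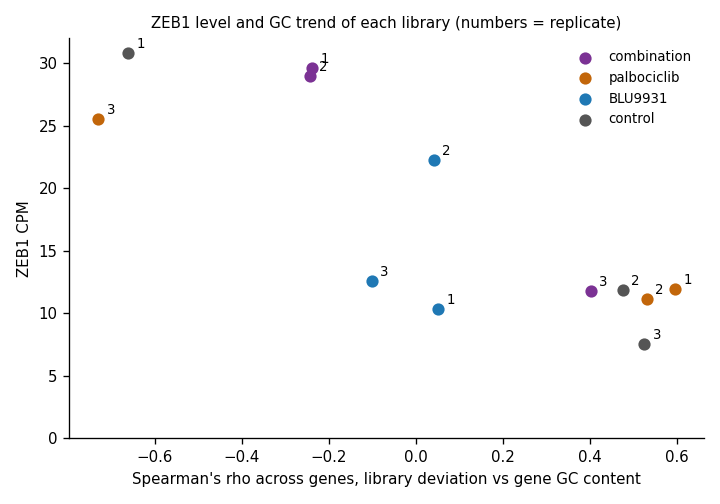
ZEB1 level in CPM (vertical axis, from 0) against the Spearman correlation, across genes, of each library's deviation from its group mean with gene GC content (horizontal axis); points are the 12 libraries, coloured by group and numbered by replicate. Control 1 and palbociclib 3, at the far left, have 30.8 and 25.5 CPM, and the libraries at the right have 7.56 to 11.9 CPM; since each deviation is taken within a group, the positions of group mates mirror each other.

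The comparison of palbociclib with control concerns this drug by itself. VIM and FN1 rose and no member fell. This is 2 of the 8 members other than SPARC, where 20.6% of all genes were called, 10.0% up and 10.5% down. SPARC was also past the threshold but is left out of this count, because its palbociclib libraries bore on its being tested. The median log2 change of the 8 members was -0.18, against 0.01 for all genes. In CPM all libraries of SNAI2, ZEB2 and TWIST1 lay below those of control, as in 16.2% of all genes, but none of the 3 was called. Without control 1 or 2 or palbociclib 1 or 2 only VIM was called, and without control 3 only FN1. TWIST1 was called without palbociclib 3 (-0.66, adjusted p = 0.0463) or BLU9931 2 (-0.58, adjusted p = 0.0300), and ZEB2 without combination 1, as given above.

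BLU9931 alone called 0 of the 9 members in edgeR's quasi-likelihood test, with an unadjusted p under 0.05 for 2 of them, VIM and SNAI1, against 16.2% of all genes. Past the adjusted threshold, 0.18% of all genes were called, 0.141% up and 0.0388% down. The libraries of VIM, FN1 and THY1 lay above those of control and those of ZEB2 below, without overlap, where 15.3% of all genes lay wholly above and 16.3% wholly below, and none of the 4 passed the adjusted threshold. VIM passed it after the GC adjustment alone (0.35, adjusted p = 0.0498). DESeq2 called 0 as well.

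Against palbociclib, the combination called VIM and FN1 up and THY1 down, 3 of 9 members, where 3.82% of all genes were called, 0.917% up and 2.91% down. Without palbociclib 2, combination 1 or combination 3, only VIM was called. Against BLU9931, the combination called VIM and FN1 up and THY1, SNAI2 and TWIST1 down, where 27.0% of all genes were called, 13.3% up and 13.7% down. These comparisons share the combination libraries with each other and with the comparison to control, so their values for a member are not independent.

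The interaction sets the log2 change in the combination against the summed log2 changes of the drugs given alone. It was called for THY1, at -2.42 ± 0.46 (SE, adjusted p = 0.0238), which is 1 of 9 members where 1.59% of all genes were called, 0.281% above 0 and 1.31% below. On the linear scale this is 0.186 times the THY1 level that the sum gives. The call for THY1 was made without control 1, palbociclib 3 or combination 2, and was lost with any other library left out (adjusted p = 0.0556 to 0.0747) and on TPM values (0.232 and 0.269). VIM had an interaction of 0.51 ± 0.15 (adjusted p = 0.146) and FN1 of 0.28 ± 0.13 (adjusted p = 0.360), and neither was called. After the GC adjustment the interaction of VIM was past the threshold (0.52, adjusted p = 0.0235), and that of FN1 was with control 1 and palbociclib 3 left out (0.26, adjusted p = 0.0400).

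**Figure D3:**
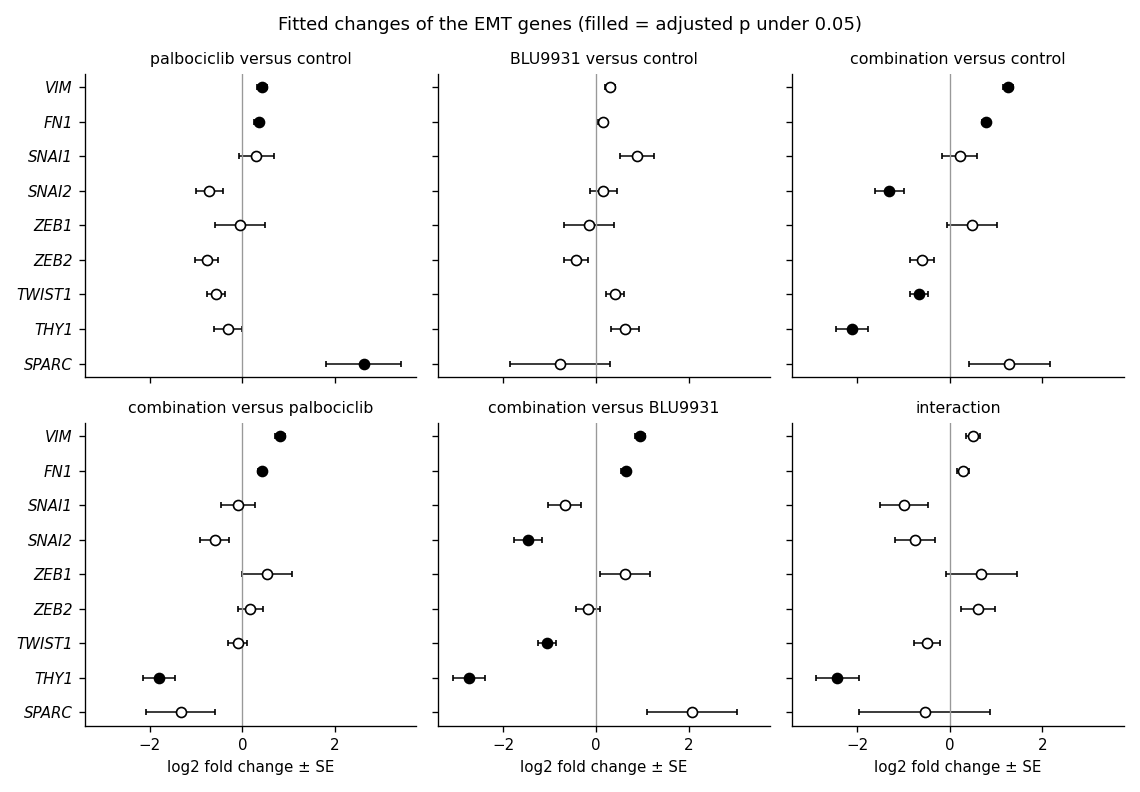
Fitted log2 fold change of each of the 9 genes (points) with its SE (bars) in the 6 comparisons; filled points have an adjusted p under 0.05. VIM and FN1 lie to the right of 0 in all comparisons and are filled in 4 of them, and THY1 lies left of 0 and filled in every comparison with the combination and in the interaction.

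E-cadherin, N-cadherin and EPCAM are the usual counterparts of these genes. CDH1, which encodes E-cadherin, was at 33.2, 36.9 and 26.9 CPM in the combination libraries, 32.9, 34.0 and 33.6 CPM under palbociclib, 25.8, 25.5 and 22.5 CPM under BLU9931, and 15.5, 18.1 and 21.3 CPM in control. In CPM every treated library lay above every control library, so that CDH1 and VIM were both higher in the same libraries. On the TPM scale the CDH1 levels under BLU9931 (9.54 to 12.4 TPM) overlapped those of control (7.60 to 11.8 TPM). Those with palbociclib, alone or combined (18.0 to 21.6 TPM), did not. CDH1 rose against control by 0.82 ± 0.15 in the combination (adjusted p = 0.00155) and by 0.87 ± 0.15 under palbociclib (adjusted p = 0.00192), with 0.42 ± 0.15 under BLU9931 (adjusted p = 0.231).

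CDH2, which encodes N-cadherin and is commonly gained in the transition, was at 153 ± 6.35 CPM in the combination and 204 ± 9.84 CPM in control (SD, n = 3), a fall of 0.41 ± 0.09 (log2, SE, adjusted p = 0.00507). Its difference was -0.18 ± 0.09 under palbociclib (adjusted p = 0.194). EPCAM, an epithelial adhesion molecule, was at 388 ± 31.5 CPM in the combination and 612 ± 59.2 CPM in control (SD, n = 3), a fall of 0.66 ± 0.16 (log2, SE, adjusted p = 0.00759). Under palbociclib it was at 386, 380 and 575 CPM, with palbociclib 3 close to the control libraries, and its difference was -0.45 ± 0.16 (adjusted p = 0.0613). CDH1 and EPCAM, both epithelial, thus had opposite signs in the combination.

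The host RNAs of microRNAs that bind ZEB1 and ZEB2 rose with palbociclib. MIR205HG, the host of miR-205, was at 7.98, 7.78 and 9.91 CPM in the combination, 7.54, 9.05 and 7.48 CPM under palbociclib, 1.36, 1.94 and 1.51 CPM under BLU9931, and 0.856, 1.00 and 0.935 CPM in control. All libraries with palbociclib lay above all without it, and MIR205HG rose by 3.19 ± 0.19 in the combination (log2, SE, adjusted p = 5.09e-07) and by 3.10 ± 0.19 under palbociclib (adjusted p = 3.75e-06). MIR200CHG, the host of miR-200c and miR-141, was at 2.45, 2.06 and 2.36 CPM in the combination, 2.82, 2.87 and 2.75 CPM under palbociclib, 1.61, 1.87 and 1.16 CPM under BLU9931, and 1.38, 0.934 and 1.42 CPM in control. It rose by 0.88 ± 0.22 in the combination (adjusted p = 0.0111) and by 1.17 ± 0.22 under palbociclib (adjusted p = 0.00345). The mature microRNAs printed above were not measured. With all 12 libraries, no change of ZEB1 or ZEB2, which carry several matches to the miR-200 seeds, was called. For miR-205, ZEB1 holds 1 match and ZEB2 holds 0. FN1 and SNAI2 also hold 2 and 1 copies of CAGTATT, and in the combination FN1 rose and SNAI2 fell. The part of the microRNAs in these levels was not tested.

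**Figure D4:**
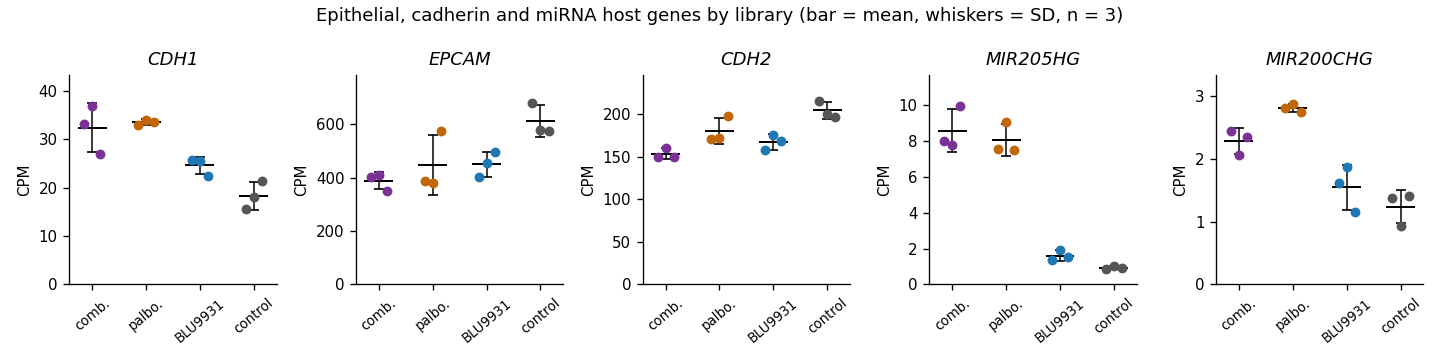
Level in CPM (linear axes from 0) of CDH1, EPCAM, CDH2 and the microRNA host genes MIR205HG and MIR200CHG for the combination, palbociclib, BLU9931 and control; points are libraries, the bar is the mean and the whiskers the SD (n = 3). MIR205HG separates the libraries with palbociclib (7.48 to 9.91 CPM) from those without (0.856 to 1.94 CPM), and CDH1 is above control in all 9 treated libraries.

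Further genes of the programme were counted from lists. In the combination against control, 8 of 36 epithelial genes rose and 7 fell, and 9 of 32 other mesenchymal genes rose and 5 fell, where 15.4% of all genes rose and 16.3% fell. Their median log2 changes were 0.09 and 0.15, against 0.03 for all genes. Under palbociclib, 5 epithelial genes rose and 3 fell, with a median of -0.09, and 5 mesenchymal genes rose and 3 fell, with a median of 0.15, where 10.0% of all genes rose and 10.5% fell. Neither list moved in a single direction.

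Among the epithelial genes, CGN, which encodes the tight junction protein cingulin, fell by 1.69 ± 0.20 in the combination (log2, SE, adjusted p = 6.67e-05) and by 1.71 ± 0.20 under palbociclib (adjusted p = 0.000164). ELF3, an epithelial transcription factor, rose by 1.48 ± 0.16 in the combination against control (adjusted p = 3.28e-05) and by 0.82 ± 0.15 against palbociclib (adjusted p = 0.0116). AP1M2, a subunit of an epithelial sorting adaptor, rose by 1.07 ± 0.18 in the combination (adjusted p = 0.000883). OCLN, which encodes occludin, fell by 0.84 ± 0.15 under palbociclib (adjusted p = 0.00200).

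Among the mesenchymal genes, CDH11, a cadherin of mesenchymal cells, fell by 2.16 ± 0.17 in the combination (log2, SE, adjusted p = 4.04e-06) and by 2.06 ± 0.17 under palbociclib (adjusted p = 2.10e-05). MMP2, a gelatinase that degrades basement membrane collagen, rose by 1.94 ± 0.19 in the combination (adjusted p = 1.83e-05) and 4.01-fold under palbociclib (adjusted p = 4.74e-05). FSTL1, a secreted glycoprotein, fell by 1.06 ± 0.17 in the combination (adjusted p = 0.000656). CD44, the hyaluronan receptor, rose by 0.52 ± 0.10 under palbociclib (adjusted p = 0.00507). Against palbociclib, the combination raised COL5A2, a fibrillar collagen gene, by 0.94 ± 0.21 (adjusted p = 0.0256) and lowered CTHRC1, a secreted collagen triple helix repeat protein gene, by 0.56 ± 0.14 (adjusted p = 0.0472).

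Of 13 other transcription factors of the transition, 3 rose and 3 fell in the combination and 2 rose and 1 fell under palbociclib, against the shares of all genes given above (15.4% up and 16.3% down in the combination, 10.0% and 10.5% under palbociclib). SOX9 rose by 0.79 ± 0.09 in the combination (log2, SE, adjusted p = 4.64e-05) and by 0.81 ± 0.09 under palbociclib (adjusted p = 0.000114). FOXC1, a forkhead factor, fell by 0.89 ± 0.19 in the combination (adjusted p = 0.00439) and by 0.66 ± 0.19 under palbociclib (adjusted p = 0.0307). KLF8, a Krüppel-like factor, rose under palbociclib (adjusted p = 0.0337) at low levels, with 0.629 to 1.17 CPM under palbociclib and 0 to 0.298 CPM in control. PRRX1, a homeobox factor of mesenchyme, fell by 0.84 ± 0.15 in the combination against control (adjusted p = 0.00143) and by 0.65 ± 0.15 against palbociclib (adjusted p = 0.0369).

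Of 15 genes that encode partners of the ZEB and SNAIL repressors or host the microRNAs, 2 rose and 5 fell in the combination and 2 rose and 3 fell under palbociclib, where the same shares of all genes apply. EZH2, the methyltransferase of the Polycomb repressive complex, fell by 1.74 ± 0.13 in the combination (log2, SE, adjusted p = 2.58e-06) and by 0.99 ± 0.13 under palbociclib (adjusted p = 0.000339). LOXL3, a lysyl oxidase-like enzyme that binds SNAIL, fell by 1.28 ± 0.29 in the combination (adjusted p = 0.00626) and by 0.95 ± 0.29 under palbociclib (adjusted p = 0.0390). The rises were those of the 2 host RNAs above. CTBP2, a corepressor that ZEB proteins recruit, was higher in the combination than under palbociclib by 0.35 ± 0.09 (adjusted p = 0.0481). Against control it fell under palbociclib by 0.29 ± 0.09 (adjusted p = 0.0389), and its difference in the combination was 0.07 ± 0.09 (adjusted p = 0.593).

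Of 16 TGF-beta ligands, receptors, SMADs and binding proteins, which drive the transition in many epithelia, 2 rose and 2 fell in the combination and 0 rose and 2 fell under palbociclib, again beside those shares. LTBP1, a latent TGF-beta binding protein, fell by 0.90 ± 0.11 in the combination against control (log2, SE, adjusted p = 9.74e-05) and by 1.00 ± 0.11 against palbociclib (adjusted p = 0.000346). Its interaction of -1.13 ± 0.16 (adjusted p = 0.00378) was the single call of the interaction among the 5 lists. LTBP2, another such binding protein, was higher in the combination than under palbociclib by 0.93 ± 0.23 (adjusted p = 0.0477). TGFBR2, a TGF-beta receptor, rose by 0.96 ± 0.18 in the combination (adjusted p = 0.00175), and SMAD6, an inhibitory SMAD, fell by 0.84 ± 0.17 there (adjusted p = 0.00353) and by 0.78 ± 0.17 under palbociclib (adjusted p = 0.00879). TGFB2, a ligand, fell by 0.59 ± 0.12 under palbociclib (adjusted p = 0.00509). BLU9931 alone called no gene of the 5 lists, while between 3 and 11 genes of each list, which held 13 to 36 tested genes, had an unadjusted p under 0.05, against 16.2% of all genes.

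Against BLU9931, the combination had 3 epithelial genes higher and 6 lower, 7 other mesenchymal genes higher and 7 lower, and 3 other transcription factors higher and 2 lower, where 13.3% of all genes were called up and 13.7% down. MARVELD3, a tight junction protein gene, fell by 0.62 ± 0.14 (log2, SE, adjusted p = 0.00587). LOXL2, a lysyl oxidase-like enzyme, fell by 1.29 ± 0.20 (adjusted p = 0.000598), and TCF4, a basic helix-loop-helix factor, rose by 0.55 ± 0.14 (adjusted p = 0.0147).

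**Figure D5:**
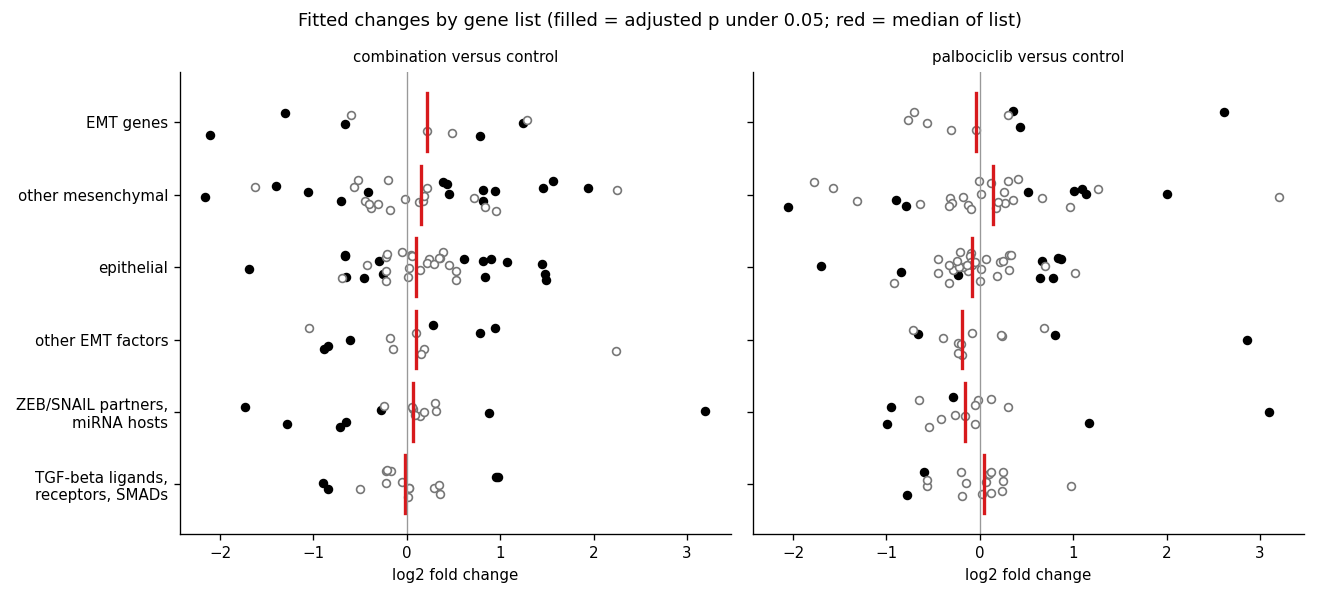
Fitted log2 fold changes of the 9 genes and of the 5 other gene lists in the combination and under palbociclib, each against control; points are genes, filled where the adjusted p is under 0.05, and red lines are the medians of the lists. Filled points lie on both sides of 0 in every list except the 9 members and the TGF-beta list under palbociclib, and the medians of all lists lie between -0.19 and 0.21.

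The protein-coding genes whose log2 CPM followed each member most closely over the 12 libraries were sought among 10889 genes whose mean was 5 CPM or more. These libraries share depth, group and GC trend, so the values are descriptions. VIM was followed most closely by TBX3 (Pearson's r = 0.98), LGALS3 (0.97) and CEACAM6 (0.96), and FN1 by NES, GSX1 and ALDH3A1 (each 0.98). THY1 was followed by EEF2K, AURKB and HPS4 (each 0.96). SNAI2 was followed by ABI2 (0.96), KIAA1958 (0.95) and MAP3K4 (0.94), TWIST1 by SRRM1 (0.94), ZNF850 and REG1A (0.92 each), and SPARC by SPINK5 and OGT (0.94 each) and KCNH8 (0.92). SNAI1 (TAX1BP3, 0.88), ZEB1 (RMDN1, 0.87) and ZEB2 (AGPAT5, 0.89) had no gene above 0.89.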

How the data were processed

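The table the authors deposited gives counts, TPM values (transcript abundances scaled to a fixed total) and FPKM values (fragments scaled by length and library size), so named per the file headers. Counts were tested, TPM values served as an alternative scale and for ranks, and FPKM values were not used. StringTie 1.3.3b, HISAT2 2.0, Trimmomatic 0.36 and bedtools 2.26.0 appear without roles in the submitters' processing notes, beside a mouse genome build. The 58174 gene IDs are human, 57836 of them are in GENCODE 29, and positions are given on GRCh38. How reads were counted, and whether by strand, is not given in the sources used here, so reads of antisense partners may be shared. The table has 0 columns of other samples.

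Genes were kept by filterByExpr of edgeR 4.0.16 (R 4.3.3), which left 20612. Libraries were scaled by TMM and fitted together, with a term per group (8 residual degrees of freedom, common dispersion 0.0518). Comparisons used the two-sided quasi-likelihood F-test with Benjamini-Hochberg adjustment over the genes tested. The test was tried on simulated counts with 200 changed genes. Alternatives used DESeq2 1.42.0 and limma 3.58.1. Replicate libraries differed by more than counting error (chi-square per degree of freedom of 16.6 to 81.7), and library totals of 21730722 to 35786607 counts limit the members with under 100 counts per library.

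The members, gene lists and alternatives were chosen with earlier results of these data known, and promoter motifs were extended after a first search. All 9 members, CDH1, CDH2 and EPCAM are named, and from each list the up to 3 called genes per comparison with the smallest adjusted p, whose values are not repeated for every comparison. MIR205HG and MIR200CHG are such genes. Of the marker lists, LYZ, SLC34A2 and VWF were named after their values were seen, and the other tested leukocyte, glandular and endothelial markers are given beside them. The called squamous markers and the tested fibroblast markers were also named after their values were seen. TBXT was not analysed here, and MAL2 has a pair of IDs, of which the tested one was used. Python 3.11.15, pandas 2.3.3 and matplotlib 3.10.9 served for tables and plots.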

Additional observations from a re-analysis of the deposited data

Results flagged for a closer look

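The change of THY1 with BLU9931 differed between cells that also received palbociclib and cells that did not. With palbociclib present it was -1.80 ± 0.35 (log2, SE), from 0.377 ± 0.138 CPM in the combination and 1.33 ± 0.526 CPM under palbociclib (SD, n = 3). Without palbociclib it was 0.63 ± 0.29, from 2.57 ± 0.0730 CPM under BLU9931 and 1.67 ± 0.230 CPM in control (SD, n = 3). The interaction tested that difference directly and gave -2.42 (adjusted p = 0.0238), with a range of adjusted p from 0.00245 to 0.0747 over the 12 fits with a library left out. The gene was called in 3 of these fits. The combination libraries held 6, 15 and 10 THY1 counts.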

How the results depend on the processing

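Single-gene results were recomputed under 1228 combinations of gene, comparison and setting: 1153 stayed on their side of the threshold, 62 lost and 13 gained a call, and no called result changed direction. The rises of VIM and FN1 and the falls of THY1 and SNAI2 in the combination, against control and against BLU9931, were called in all 23 alternatives. With 1 library left out, the members called ranged from 1 to 4 for palbociclib against control, 0 to 0 for BLU9931 against control, 4 to 5 for the combination against control, 1 to 3 against palbociclib, 5 to 6 against BLU9931, and 0 to 1 for the interaction. In the same order, 20.6%, 0.18%, 31.7%, 3.82%, 27.0% and 1.59% of all genes were called with every library kept. The shares in the alternative fits were not computed. These counts and those that follow include SPARC. In fits of only the compared groups, 0 members were called for palbociclib against control and 1 for the combination against palbociclib. With the GC adjustment, 1 was called for BLU9931 against control and 2 for the interaction. The interaction also had 2 with control 1 and palbociclib 3 left out, 2 with the replicate block and GC adjustment together, and 0 by limma on log2(TPM + 0.1). FN1 in the combination against palbociclib was not called with no filter (adjusted p = 0.12), on TPM values (0.0783 and 0.0775), or after the GC adjustment (0.0814); the cause of none of these losses was tested.

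The labels do not say that replicate numbers pair the libraries. Deviations from the group means correlated by -0.331 to 0.148 between same-numbered libraries. They carry each library's GC trend as well, so they cannot show whether libraries were paired. With the replicate block, 1 member was called for palbociclib against control in place of 3 (both counts with SPARC). FN1 (adjusted p = 0.0501) and SPARC (adjusted p = 0.0867) were lost there, and VIM stayed. The counts of the other comparisons stayed within 1.5 times. Library totals in place of TMM moved the median of all genes to 0.11 (log2) in the combination against control, and SNAI2, THY1 and TWIST1 stayed below 0 there. Members with few counts, SPARC above all, limit what this depth can show.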
